A study of Homo sapiens with 2 samples.

Results

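Histone genes were taken as the genes whose name on the array starts with HIST1, HIST2, HIST3, HIST4, H2AF, H1F or H3F. These were 82 of 27190 genes on the array, with 100 of its 34127 probes. Of the 82 genes, 68 carry a HIST name and are called replication-dependent here, and 14 are called replication-independent. A gene counted as measured if ALDH+ cells, ALDH- cells or both gave signal well above background with 1 of its probes on both arrays, and it was represented by its brightest such probe. By this rule 58 of 68 replication-dependent and 11 of 14 replication-independent genes were measured, among 13703 measured genes in all.

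The cells were RMG1, an established ovarian cancer cell line of clear cell type, grown in culture without a treatment. They were sorted once with the ALDEFLUOR assay, which stains cells by aldehyde dehydrogenase (ALDH) activity, into ALDH+ cells (ALDEFLUOR positive) and ALDH- cells (ALDEFLUOR negative). Both RNA extracts were hybridized together to 2 arrays of the same slide, with ALDH+ cells in Cy5 and ALDH- cells in Cy3 on array 1 and the dyes exchanged on array 2. The extracts were the same, so both arrays count as 1 replicate. ALDH+ and ALDH- cells could therefore not be compared with a test, and differences between the arrays are technical. The sample labels name RMG1, as do the results of the study, whereas its methods name AMOC2, a serous line, as the source of the RNA. Of 8 markers of clear cell carcinoma and epithelium, all 8 were measured, whereas 0 of 4 fibroblast markers were. Of the red cell markers HBB was not measured, and no probe was matched to HBA1. Of the leukocyte markers PTPRC and CD14 were measured, CD3E and ITGAM were not, and no probe was matched to LYZ. PTPRC had log2 ratios of -0.12 and 0.19 on arrays 1 and 2, and CD14 had 0.32 and 0.58.

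Histones are the proteins around which DNA is wound. H2A, H2B, H3 and H4 form the core of the nucleosome, and H1 is the linker histone that binds where DNA enters and leaves it. Replication-dependent genes lie in clusters, have no introns and are transcribed mostly while DNA is copied. Their messages end in a conserved stem-loop, bound by the stem-loop binding protein SLBP, in place of a poly(A) tail. Replication-independent genes encode variants such as H2A.X, H2A.Z, macroH2A and H3.3 and are used throughout the cell cycle, mostly from polyadenylated messages. The methods primed the labeling with oligo dT, so a message without a poly(A) tail need not be labeled in proportion to its amount. Signals of the replication-dependent probes may come from polyadenylated forms, and which form each probe reported was not tested.

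The stem-loop itself lay within some of the 60-base probes and is shown because it is the feature that sets these messages apart. A search for a 6-base stem that starts with GG, a 4-base loop that starts with TTT and the reverse complement of the stem, in the given orientation of the probe, found it in 6 of 80 replication-dependent probes (7.5%), in 0 of 20 replication-independent probes and in 7 of all 34127 probes (0.0205%). The 16 bases of the stem-loop are in capitals, with up to 5 bases on each side, and sequences are from the array files.
HIST1H2AI: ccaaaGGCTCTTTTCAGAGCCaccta
HIST1H2BE: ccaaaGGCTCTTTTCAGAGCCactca
HIST1H2BF: ccaaaGGCTCTTTTAAGAGCCa
HIST1H3H (second probe): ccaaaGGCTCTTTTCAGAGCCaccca
HIST1H4K (second probe): caaaaGGCCCTTTTTAGGGCCcc
HIST2H3A: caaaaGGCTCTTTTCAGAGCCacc
The HIST1H2BE probe was not measured. The other 5 had mean log2 ratios of ALDH+ to ALDH- cells from 0.12 (HIST1H3H, second probe) to 0.37 (HIST2H3A), so all 5 were above 0. So were 52 of the 58 measured replication-dependent genes and 6799 of all 13703 measured genes. The second HIST1H3H probe was dim, with signals between 132 and 190. On the single arrays the 5 probes lay above 0 as well, except the second HIST1H4K probe on array 2 (0.47 on array 1 and -0.0047 on array 2).

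Replication-dependent genes had higher ratios than most genes. Their median log2 ratio was 0.22 (1.17-fold), against -0.0023 for all measured genes, and 52 of 58 lay above 0. The ratio was above 0 on both arrays for 44 of 58 genes, or 75.9%, where 33.7% of all measured genes were. It was below 0 on both arrays for 3 of 58, where 36.1% of all measured genes were. The shift was small for each gene: 0 of 58 passed 1.5-fold higher (1.51% of all measured genes did) and 0 passed 1.5-fold lower (4.58% did). Past 2-fold there were 0 histone genes of either kind, with 0.212% of all measured genes higher and 0.708% lower. These are ratios within equal amounts of labeled RNA, and more cells that express a gene and more of its RNA per cell cannot be told apart.

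Both arrays contributed unequally to this shift. The median over the 58 genes was 0.28 on array 1, with ALDH+ cells in Cy5, and 0.13 on array 2, with ALDH+ cells in Cy3. Array 1 gave the higher value for 46 of 58 genes, against 7653 of all 13703. The difference between the arrays, split evenly in the direction of the dyes, had a median of 0.076 for these genes and 0.016 for all genes. With median centring in place of loess normalization the median of all genes moved to 0.073 and that of the replication-dependent genes to 0.37, with 58 of 58 above 0. The part of the dyes in the shift was not tested beyond these values.

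**Figure D1:**
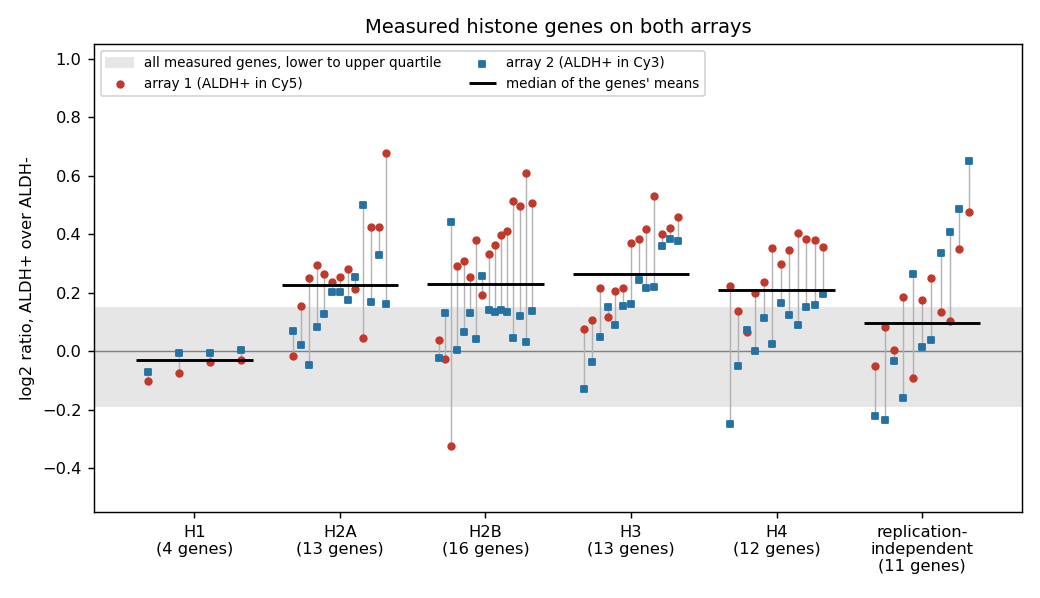
Log2 ratio of ALDH+ to ALDH- cells (vertical axis) of each measured histone gene, grouped by histone family, with replication-independent genes at the right. Circles are array 1, squares array 2, a thin line joins the values of 1 gene, black bars are medians of the gene means, and the gray band runs from the lower to the upper quartile of all measured genes. The medians of H2A, H2B, H3 and H4 lie between 0.21 and 0.26, above the band, and that of H1 lies at -0.03.

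The core histone families lay close together. The median log2 ratio was 0.23 for 13 H2A genes, 0.23 for 16 H2B genes, 0.26 for 13 H3 genes and 0.21 for 12 H4 genes. In all, 52 of the 54 measured core genes lay above 0, 44 on both arrays and 0 below 0 on both arrays. The 2 core genes below 0 were HIST3H3 and HIST1H4C. On array 1 and array 2 the medians were 0.25 and 0.17 for H2A, 0.35 and 0.13 for H2B, 0.37 and 0.16 for H3 and 0.32 and 0.10 for H4, so array 1 was the higher in each core family.

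Ratios of the replication-dependent linker histones lay below the medians of the core histones. Of 6 replication-dependent H1 genes 4 were measured, and all 4 had mean log2 ratios just below 0, with a median of -0.03. Below 0 lay 6904 of all 13703 measured genes as well. HIST1H1C, encoding H1.2, had log2 ratios of -0.04 and -0.0070 on arrays 1 and 2. HIST1H1D, encoding H1.3, had -0.10 and -0.07, the lowest mean of the replication-dependent genes (-0.09). HIST1H1E, encoding H1.4, had -0.03 and 0.0036, and HIST1H1B, encoding H1.5, had -0.08 and -0.0050. The range of these 4 means, -0.09 to -0.01, did not overlap with that of the 13 H2A genes (0.02 to 0.42) or the 16 H2B genes (0.0074 to 0.32), and 1 H3 gene, HIST3H3, fell within it. The separation from H2A and H2B depended on the processing. Under median centring all 4 H1 genes were above 0, with a median of 0.12 against 0.37 for all replication-dependent genes, and the ranges overlapped: HIST1H1C had 0.29, above HIST2H2AC (0.19) and HIST1H2BN (0.07). On array 2 alone HIST2H2AB (-0.05) and HIST1H2BN (-0.02) lay among the H1 values, and on array 1 alone HIST2H2BE (-0.33) lay below all of them. HIST1H1A and HIST1H1T, the latter known from the testis, had no signal well above background on any array.

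Promoters of the linker and core genes differed in sequence. Promoters from RefSeq (GRCh38.p14) were found for 74 of the 82 histone genes, 61 of them replication-dependent, and the 250 bases before each start were searched on both strands. The motif AAACACA, known as the H1 box, was present in 6 of 6 H1 promoters and 0 of the 55 core promoters, whereas 4.97% of all 27305 promoters held it. The motif CCAAT was in 52 of 61 replication-dependent promoters (85.2%), against 32.7% of all promoters. All 6 H1, 14 H2A, 18 H2B and 11 H3 promoters held it, but only 3 of 12 H4 promoters did. Some H2A and H2B genes on opposite strands start as little as 194 bases apart, so the 250 bases searched for each largely coincide. A motif there is counted for both genes, so these counts hold fewer separate sequences than promoters. The motif TATAAA was in 40 of 61 (65.6%), against 11.4% of all promoters. Of 13 replication-independent histone promoters, 10 held CCAAT (76.9%), 4 held TATAAA (30.8%) and 2 held AAACACA (15.4%). None of the 3 motifs contains another, and a match does not show that a factor binds there. The 150 bases before the start are shown for HIST1H2AC, a core gene with one of the highest ratios, and for HIST1H1C, a linker gene, each on the strand of its gene with the 3 motifs and their reverse complements in capitals. HIST1H2AC is on the plus strand at chr6:26124022-26124171, and HIST1H1C on the minus strand at chr6:26056471-26056620.
HIST1H2AC: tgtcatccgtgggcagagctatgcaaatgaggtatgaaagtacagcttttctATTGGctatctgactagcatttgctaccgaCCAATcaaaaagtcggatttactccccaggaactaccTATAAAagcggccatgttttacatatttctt
HIST1H1C: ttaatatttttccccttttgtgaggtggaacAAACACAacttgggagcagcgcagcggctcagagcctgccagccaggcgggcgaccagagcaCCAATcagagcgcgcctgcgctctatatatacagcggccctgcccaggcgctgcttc

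The 5 highest replication-dependent genes were HIST2H2AA4, HIST1H3F, HIST1H3H, HIST1H3I and HIST1H2AC, and 3 of them encode H3. The order within the class repeated only in part between the arrays. Across the 58 genes Spearman's rho of array 1 with array 2 was 0.39, against 0.59 across all 13703 measured genes. Signals before normalization are best compared in the same dye. For HIST1H3F the Cy5 signal was 3719 in ALDH+ cells and 2425 in ALDH- cells, and the Cy3 signal was 1852 in ALDH+ cells and 1308 in ALDH- cells, so ALDH+ cells were brighter in both dyes. After normalization its log2 ratio was 0.46 on array 1 and 0.38 on array 2, with a mean of 0.42 (1.34-fold). HIST1H3H had 0.42 and 0.38, and HIST1H3I had 0.40 and 0.36. ALDH+ cells thus had the higher ratio on both arrays for all 3 H3 genes.

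Higher still on array 1, HIST2H2AA4, encoding an H2A of the HIST2 cluster, was the least even of the 5. Its Cy5 signal was 1266 in ALDH+ and 783 in ALDH- cells, but its Cy3 signal was 578 in ALDH+ and 472 in ALDH- cells, and the log2 ratios were 0.68 and 0.16 (mean 0.42, technical SD 0.37). It has a near-identical copy, HIST2H2AA3, whose message this probe may also report. HIST1H2AC had log2 ratios of 0.43 and 0.33 (mean 0.38). Its probe lies on the plus strand of chromosome 6 (hg19) from 26124461 to 26124520 and begins at the start codon, which is in capitals.
HIST1H2AC: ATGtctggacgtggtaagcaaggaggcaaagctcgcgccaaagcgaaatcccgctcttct

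The 3 H3 genes with the highest ratios and the variant gene H3F3B had probes over the same stretch of the H3 coding sequence. They are shown because nearly the same sequence was read with different ratios. Capitals mark bases that differ from the HIST1H3F probe where both overlap, aligned without gaps. HIST1H3F lies on the minus strand of chromosome 6 (hg19) from 26250588 to 26250647, HIST1H3H on the plus strand of chromosome 6 from 27778041 to 27778100, HIST1H3I on the minus strand of chromosome 6 from 27839857 to 27839916 and H3F3B on the minus strand of chromosome 17 from 73774912 to 73774971.
HIST1H3F: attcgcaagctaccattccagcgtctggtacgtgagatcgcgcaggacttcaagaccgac
HIST1H3H: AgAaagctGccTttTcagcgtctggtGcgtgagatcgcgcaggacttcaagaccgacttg
HIST1H3I: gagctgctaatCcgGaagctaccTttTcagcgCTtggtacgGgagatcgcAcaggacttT
H3F3B: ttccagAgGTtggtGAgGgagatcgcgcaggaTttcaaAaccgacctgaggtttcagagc
HIST1H3H matched HIST1H3F at 51 of 57 overlapping bases, with an unbroken run of 30 bases, so these 2 probes may report each other's messages and their close ratios (0.40 and 0.42) are not independent. HIST1H3I matched at 42 of 51 bases, with no run over 8. H3F3B matched at 37 of 45 bases, with a longest run of 14, and its mean log2 ratio was -0.02. The probe of HIST1H3E, not shown, matched that of HIST1H3F at 46 of 57 overlapping bases, and its mean log2 ratio was 0.15. Ratios over closely matching sequence thus also varied within the replication-dependent genes.

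Such sharing was frequent among the replication-dependent probes. Of the 58 probes used, 23 shared an exact run of at least 20 bases with a probe of another histone gene, and the longest run was 37 bases, between HIST1H4J and HIST1H4K. Of the 11 replication-independent probes used, 0 did, and their longest run was 17. Only probe was compared with probe, so a match of a probe to another part of a related message would not have been found. Counts of genes above 0 therefore hold fewer independent measurements than genes.

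The lowest replication-dependent genes besides the 4 H1 genes began with HIST3H3, which encodes a testis-known H3, with log2 ratios of 0.07 and -0.13 (mean -0.03). HIST1H4C followed, with 0.22 and -0.25 (mean -0.01), and both genes changed sign with the dyes. Within the replication-dependent genes the ratio fell with probe brightness: Spearman's rho across the 58 genes was -0.42, and the medians were 0.15 for the brighter 29 genes and 0.27 for the dimmer 29. The genes share the same extracts and are not independent, and the part of brightness in the ratios was not tested. GC content of the probe had a rho of 0.09 with the ratio within the class. The median GC content of the probes was 53.3%, against 43.3% for all measured genes. After a fit on GC content the class median lay 0.19 above that of all measured genes, against 0.22 under the main processing. The part of GC content in the ratios was not tested beyond these values.

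**Figure D2:**
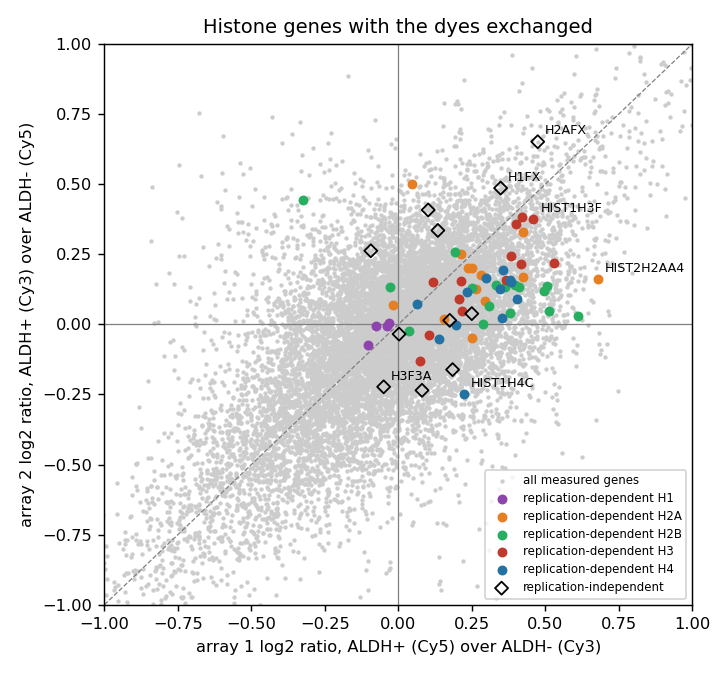
Log2 ratio of ALDH+ to ALDH- cells on array 1 (horizontal axis) against array 2 (vertical axis) for measured histone genes, over all measured genes in gray; the dashed line marks equal values, and genes beyond 1 on either axis are not shown. Most core histone genes lie right of 0 and above 0 but below the dashed line, the 4 H1 genes lie next to the origin, and H2AFX and H1FX lie above the line.

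By cluster, the 48 measured genes of HIST1, the large cluster on chromosome 6, had a median log2 ratio of 0.23 and the 8 of HIST2, on chromosome 1, one of 0.19. The 2 measured HIST3 genes, HIST3H3 and HIST3H2BB, had means of -0.03 and 0.05. HIST4H4, the only HIST4 gene on the array, was not measured.

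Many H2A and H2B genes lie head to head and are transcribed apart from a shared promoter region. By the RefSeq starts (GRCh38.p14), 11 pairs of histone genes on opposite strands started within 1000 bases of each other, 194 to 979 bases apart, and both genes were measured in 9 pairs. In all 9 pairs both means were above 0 under the main processing, and in 7 of 9 without background correction, where HIST2H2BE (-0.02) and HIST1H2BN (-0.0018) were below 0. Under the main processing 52 of all 54 measured core genes lay above 0, so the count does not set the pairs apart. HIST2H2BE was near background and uneven between the arrays (-0.33 and 0.44), and the software's ratio placed it at -0.19. The gap between the partners had a median of 0.05 on the log2 scale, from 0.03 (HIST2H2BE and HIST2H2AC) to 0.23 (HIST1H3F and HIST1H2BH, the only pair with an H3 gene and the one farthest apart). HIST1H2BC, the partner of HIST1H2AC across the promoter shown above, had a mean of 0.32 against 0.38, although its arrays were uneven (0.61 and 0.03). HIST1H2AK and HIST1H2BN stood at 0.22 and 0.0074. No test of the pairs against other genes was made, and no gap between unpaired genes is given for comparison.

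**Figure D3:**
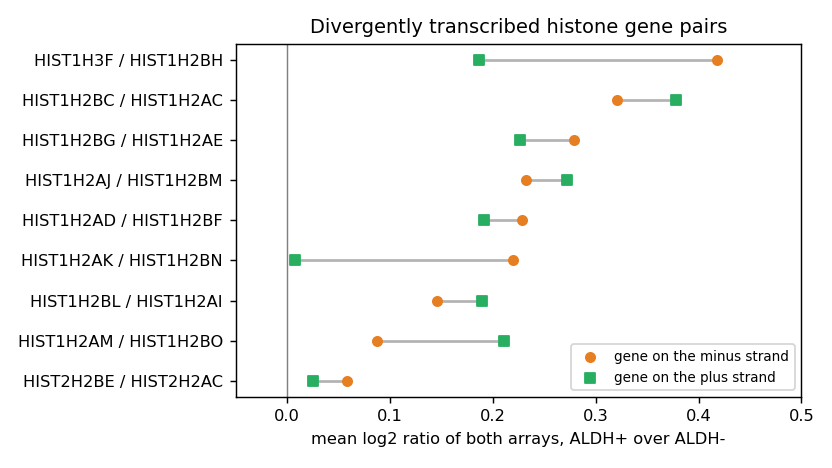
Mean log2 ratio of both arrays (horizontal axis, ALDH+ over ALDH- cells) for the partners of 9 divergently transcribed histone gene pairs, circles for the gene on the minus strand and squares for the gene on the plus strand. Both partners lie above 0 in every pair under the main processing, with gaps from 0.03 to 0.23. Of all 54 measured core genes, 52 lie above 0.

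Replication-independent genes spread over a wider range. The median of the 11 measured genes was 0.09, the value of the near-background H1FNT, from -0.14 to 0.56, 8 lay above 0, and 6 did so on both arrays. Of all 13703 measured genes 6799 lay above 0, and 33.7% did so on both arrays. None of the 11 passed 1.5-fold in either direction under the main processing, where 1.51% of all measured genes did so higher and 4.58% lower.

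Among them H2AFX had the highest ratio of the 69 measured histone genes. It encodes H2A.X, the variant phosphorylated at DNA breaks, and its gene is known to give both a stem-loop message and a longer polyadenylated one. Its Cy5 signal was 4197 in ALDH+ cells and 2522 in ALDH- cells, and its Cy3 signal was 2326 in ALDH+ cells and 1433 in ALDH- cells, so ALDH+ cells were brighter in both dyes. The log2 ratios were 0.47 and 0.65, with a mean of 0.56 (1.48-fold, technical SD 0.13), and 98.4% of all measured genes had a lower mean. That mean is just under 1.5-fold, and it was past it on array 2 alone, after the GC fit, with median centring, with the ratio of the array software and with a smaller offset (10) in the background correction.

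The variant linker histones differed from the replication-dependent ones. H1FX, encoding H1.10, had log2 ratios of 0.35 and 0.49 (mean 0.42, 1.34-fold), with Cy5 signals of 562 in ALDH+ and 355 in ALDH- cells. H1F0, encoding H1.0, known from cells that have stopped dividing, had 0.10 and 0.41 (mean 0.25). Both exceeded on each array every replication-dependent H1 gene (highest single value 0.0036). H1FNT, a testis linker histone, was near background, with signals between 123 and 174 and log2 ratios of 0.17 and 0.01.

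Of the H2A variants, H2AFJ had log2 ratios of 0.13 and 0.34 (mean 0.23), and H2AFZ, encoding H2A.Z.1, had 0.25 and 0.04 (mean 0.14). H2AFV, encoding H2A.Z.2, had 0.08 and -0.24 (mean -0.08). The macroH2A genes also changed sign with the dyes: H2AFY had 0.18 and -0.16, and H2AFY2 had -0.09 and 0.26, which places the means (0.01 and 0.08) within the spread of the arrays. Only H2AFJ and H2AFZ of these 5 were above 0 on both arrays.

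H3.3, the variant placed outside replication, is encoded by H3F3A and H3F3B, and its ratios depended on the probe. H3F3A had the lowest mean of the 11 genes, -0.14 (-0.05 and -0.22), by the brightest of its 3 probes, while the others had means of -0.09 and 0.02. H3F3B had -0.02 by its brightest probe, whose Cy5 signals were 31382 in ALDH+ and 24245 in ALDH- cells. The other H3F3B probe, 2045 bases farther along the gene (hg19), had log2 ratios of 0.44 and 0.43, the most even of these values, with Cy5 signals of 1640 in ALDH+ and 1012 in ALDH- cells. The gap of 0.45 between both H3F3B probes was larger than that of 91.0% of 2520 genes with several measured probes (median gap 0.17). Which messages each probe reported was not tested.

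**Figure D4:**
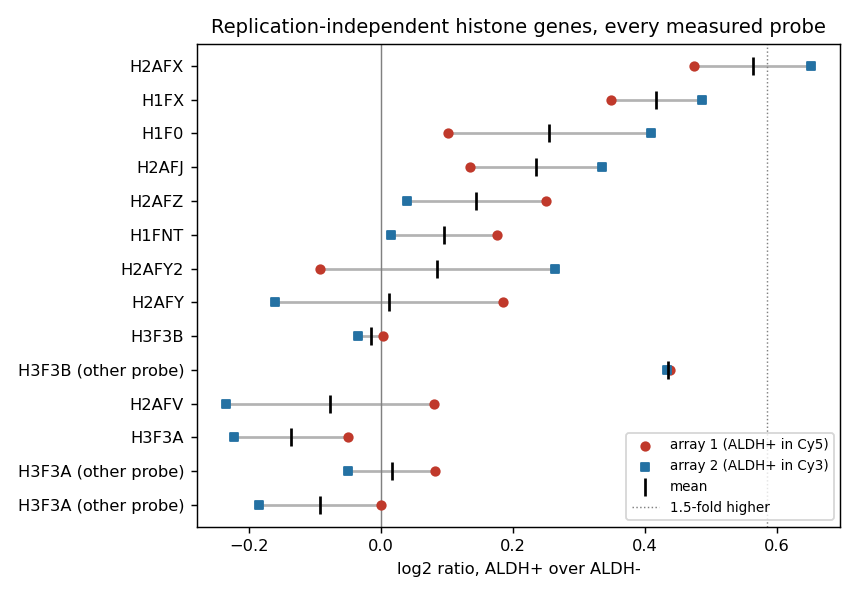
Log2 ratio of ALDH+ to ALDH- cells (horizontal axis) for every measured probe of the 11 measured replication-independent genes, ordered by the mean of the gene's brightest probe; circles are array 1, squares array 2, vertical ticks their mean, and the dotted line is 1.5-fold. H2AFX and H1FX are highest, and the probes of H3F3B stand at -0.02 and 0.44.

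Several replication-dependent genes also had more than 1 measured probe. HIST1H3H had 0.40 by its brightest probe and 0.12 by the one over the stem-loop, which was dim, with signals between 132 and 190. HIST1H2AC had 0.38 at the start codon and 0.22 by a probe 14361 bases farther along, which had 0.44 on array 1 and 0.00056 on array 2. HIST1H2BK had 0.22 by its brightest probe and 0.31 by another, 8246 bases apart. Probes at such distances lie outside the short intronless message. HIST1H2AM (0.09 and 0.23), HIST1H4A (0.17 and 0.07), HIST1H4D (0.24 and 0.23) and HIST1H4K (0.19 and 0.23) had both probes within 135 bases, and all of these means were above 0.

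Genes that make, process and place histones did not share the direction of the replication-dependent genes. Of 25 genes for histone transcription and 3' end processing 21 were measured, with a median log2 ratio of -0.18, and 16 of 21 lay below 0, 12 of them on both arrays. Of all 13703 measured genes 6904 lay below 0, and 36.1% did so on both arrays. None of the 21 passed 1.5-fold, where 1.51% of all measured genes did so higher and 4.58% lower. SLBP, which binds the stem-loop, had -0.37 and -0.52 (mean -0.45, 0.734-fold), the lowest of this list. SYMPK, a scaffold of the cleavage complex, had a mean of -0.44, and CASP8AP2, a component of the histone locus body, had -0.42 and -0.42. HINFP, a transcription factor of H4 genes, was the highest, with 0.54 and 0.31 (mean 0.42). Both CASP8AP2 and HINFP were dim, with signals between 139 and 221 and between 163 and 260 before normalization. Negative control spots had medians of 127 to 135 in Cy3 and 43 to 45 in Cy5. NPAT, the coactivator of histone gene transcription, was not measured.

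Of 35 histone chaperone and deposition genes 33 were measured, with a median of -0.06, and 21 of 33 lay below 0, as did 6904 of all 13703 measured genes. More than 1.5-fold lower were 3 of 33 (4.58% of all measured genes were), and no other gene of either list passed 1.5-fold. UBN2 and UBN1, subunits of the HIRA complex that places H3.3, had means of -0.71 and -0.69, and EP400, of a complex that exchanges H2A.Z, had -0.67. HIRA itself had -0.54 and -0.49, and ATRX, which places H3.3 with DAXX, had -0.43 and -0.69, whereas DAXX had -0.30 and 0.06. Chaperones that work at the replication fork were split: NASP had a mean of -0.26, CHAF1B -0.24 and CHAF1A -0.19, whereas ASF1B had 0.21 and 0.15, and ASF1A was not measured. The centromeric H3 variant CENPA (0.41 and 0.28) and OIP5, which takes part in its loading (mean 0.28), were the highest of this list, and HJURP, the CENPA chaperone, had 0.12 and 0.08. Both lists together had 54 measured genes and a median of -0.10, which moved to 0.0081 under median centring, so their position relative to 0 depended on the scaling. Relative to the median of all genes, it stayed lower, since that median moved to 0.073.

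Other genes of S phase likewise had lower ratios: 42 of 43 were measured, and their median was -0.19. Below 0 lay 32 of 42, against 6904 of all 13703 measured genes. Among the 32 were SLBP, NASP, CHAF1B, CASP8AP2 and CCNE2 of the lists above. Without the genes of those lists, 37 had a median of -0.17. The median of the replication-dependent histone genes was 0.22. Under the main processing it thus lay on the other side of 0 from that of genes expressed in the same phase of the cycle. The S phase list was not followed through the alternatives, so its side of 0 under other scaling was not tested. With 1 extract of each population, a difference between cells and one between extracts cannot be told apart.

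**Figure D5:**
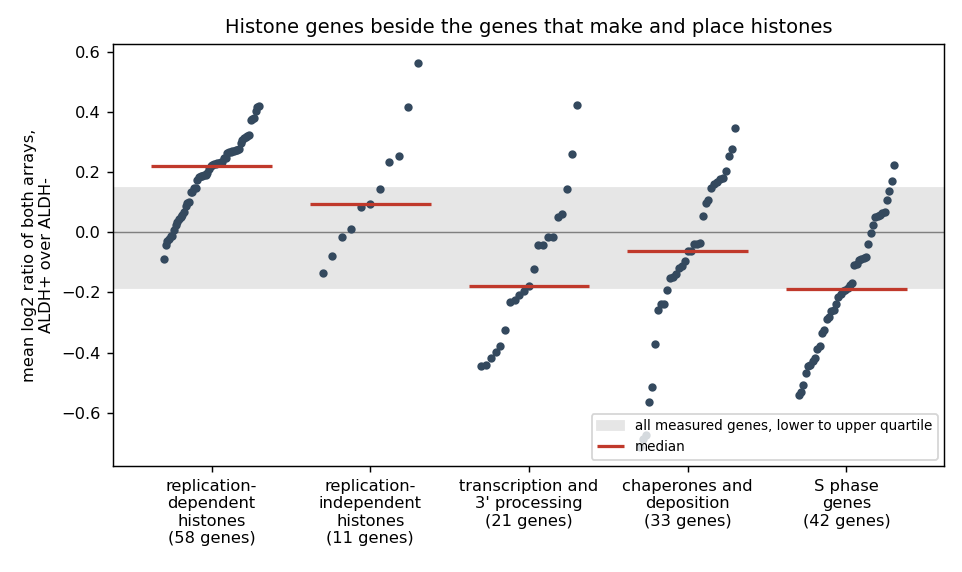
Mean log2 ratio of both arrays (vertical axis, ALDH+ over ALDH- cells) of each measured gene in 5 lists, sorted within each list, with medians in red and the range between the quartiles of all measured genes in gray. The medians are 0.22 and 0.09 for the histone genes, and -0.18, -0.06 and -0.19 for the processing, chaperone and S phase lists, some genes of which are shared.

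The 13 histone genes that were not measured were the replication-dependent HIST1H1A, HIST1H1T, HIST1H2AA, HIST1H2BA, HIST1H2BE, HIST1H4G, HIST2H2BA, HIST2H4A, HIST3H2A and HIST4H4 and the replication-independent H1FOO, H2AFB2 and H2AFB3. HIST3H2A and HIST4H4 came closest, each well above background in 1 array for each population. HIST2H4A is a near-identical copy of HIST2H4B, whose own probe was measured, with a mean of 0.25, and may report both. Of the measured genes, HIST2H2BE was the only one well above background on both arrays in 1 population alone: it was so in ALDH- cells on 2 arrays and in ALDH+ cells on 1. Its log2 ratios were -0.33 and 0.44, the widest spread among the measured histone genes.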

How the data were processed

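RNA of ALDH+ and ALDH- cells was compared on 2 two-color Agilent arrays of 60-base probes with the dyes exchanged. The labeling primer was oligo dT. The authors deposited spot and local background intensity as scanned, without normalization, read by Feature Extraction 10.7.3.1 per the file headers (the submitters' processing notes name 8.5.1.1). They also deposited the software's log10 ratio, used as an alternative. A deposited table that joins both arrays has 6 columns of sample values, which were not used.

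Mean signals were corrected with normexp (offset 50) and median local background, then normalized by loess within each array, in R 4.3.3 with limma 3.58.1. Control and outlier spots were left out. Of the spots of the 100 histone probes, 0 were outliers or saturated. A probe was taken as well above background if the software flagged over 50% of its spots so. Gene tables were made in Python 3.11.15 (scipy 1.17.1, pandas 2.3.3, numpy 2.4.6). Log2 ratios are ALDH+ over ALDH- cells, averaged over both arrays, and a fold is 2 to that power. Accessions of 25422 probes, 97 of them histone probes, matched RefSeq (GRCh38.p14) and gave the current gene symbol, and other probes kept their array name. Histone genes are written with their array names. Probe coordinates are hg19.

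The genes named were the 5 highest and 5 lowest of each class, all measured replication-independent genes, genes with several measured probes, and, of the processing and chaperone genes, those past 1.5-fold, the 3 highest and 3 lowest and a set of central ones. Examples of sequences, pairs and single features outside this rule were chosen after their values were seen. The members and lists were chosen with earlier results of these data known. With 1 sample per population no test was made, and the number of arrays limits the precision. Steps were tested on simulated data. The alternatives were other background corrections, median centring, the software's ratio, other filters, the mean over probes, a fit on probe GC content and each array alone.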

Additional observations from a re-analysis of the deposited data

How the results depend on the processing

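The median of the replication-dependent genes stayed above 0 under all 12 alternatives. It was 0.37 with median centring, and it lay between 0.13 and 0.28 with either array left out. That of the replication-independent genes also stayed above 0, at 0.31 with median centring, 0.16 with the software's ratio and 0.04 to 0.13 with either array left out, the lowest without array 1. Replication-dependent genes below 0 numbered 0 with median centring, 11 without a filter on dim probes (of 68 genes) and 7 to 10 with either array left out. Past 1.5-fold higher there was 1 replication-dependent gene with median centring and 0 to 2 with either array left out. Of the replication-independent genes 1 passed 1.5-fold higher with an offset of 10, with median centring, with the software's log ratio and after the GC fit, and 0 to 1 with either array left out. The median of the processing and chaperone genes changed sign with median centring (0.0081), was -0.0479 after the GC fit and lay between -0.111 and -0.0331 with either array left out. Over all genes, those past 2-fold higher numbered 65 with an offset of 10, 19 with no background correction, 53 with median centring and 137 with the software's ratio, against 29. Those past 2-fold lower numbered 45 with median centring and 274 with the software's ratio, against 97. Past 1.5-fold higher there were 511 and 560 genes, and past 1.5-fold lower 402 and 1256, with the same alternatives in that order. Of 827 values of single histone genes under the alternatives, 54 moved by more than the technical SD, 34 had the other sign and 8 were past 1.5-fold. With 2 arrays, leaving 1 out always moves a gene's mean by less than its technical SD. The values with either array left out could therefore not count among those that moved. The cause of these changes was not tested. No paired analysis was possible because there was no second pair of extracts, and each ratio is already a difference within an array. Probes near background, such as HIST2H2BE, have ratios compressed by the offset.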
